A study of Mus musculus with 6 samples.

Results

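The genes described here are 33 members of the nuclear receptor superfamily, chosen by symbol from the 55401 gene IDs of the deposited count tables. The oestrogen and progesterone receptors, the Hnf4 genes, Nr1h4 and Nr0b2 were left out of this selection, which used no measured value. Polyadenylated RNA was measured in primary mouse cholangiocytes, the epithelial cells of the bile ducts, from wild-type mice (WT) and from mice with polycystic liver disease (PLD), a condition in which cysts grow from the bile ducts. Both groups were sampled 3 months after tamoxifen, and each held 3 libraries. The sources used here do not name the mutated gene, the Cre driver, the strain, the age, the sex or the hour of collection. Livers were perfused and digested, and cells were collected with an antibody against EpCAM, a surface protein of epithelial cells, on magnetic beads. Nothing in the labels ties each library to an animal of its own, so the p-values rest on the spread among these libraries, which may be technical.

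Nuclear receptors are transcription factors with a zinc finger DNA-binding domain and, in most members, a pocket that binds a lipid-soluble ligand such as a fatty acid, an oxysterol, a retinoid, a thyroid hormone or a steroid. Many of them (the peroxisome proliferator-activated, liver X, pregnane X, vitamin D, retinoic acid and thyroid hormone receptors) bind DNA as a pair with a retinoid X receptor, at repeats of a short element close to AGGTCA. In bile duct cells, members of the family are known to sense bile constituents and to take part in detoxification, transport and the restraint of inflammation.

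Of the 33 genes, 32 had enough reads to be tested, and 17 of these (53.1%) differed between PLD and WT at an adjusted p below 0.05 (edgeR quasi-likelihood test with Benjamini-Hochberg adjustment over 15334 genes). Across all tested genes 55.4% passed the same test, so the share of receptor genes lay near the background. In PLD 5 of the 32 tested receptor genes rose (Ppard, Pparg, Nr1i2, Rxrb and Nr1d1), against a background of 27.0% of all tested genes. Another 12 of the 32 fell (Ppara, Rarb, Rxra, Rxrg, Thra, Thrb, Nr4a1, Nr4a2, Nr4a3, Nr2f1, Nr2f2 and Nr5a2), against a background of 28.4%. In 21 of the 32 tested genes (65.6%) the CPM of the groups did not overlap, beside 66.2% of all tested genes. Both called and changed at least 2-fold were 8 of the 32 genes, or 25.0%, beside 27.3% of all tested genes. The median log2 fold change was -0.23 over the 32 tested receptor genes and 0.01 over all tested genes. The untested gene was Nr1i3, which encodes the constitutive androstane receptor, with 2, 5 and 1 reads in the WT and 1, 0 and 0 reads in the PLD libraries. It shares 74.9% of its exonic bases with Tomm40l on the opposite strand, and reads in such stretches are left out by the counting program's default, so these reads do not give its level.

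The make-up of the RNA differed between the groups, and the values below stand beside every receptor result. Of 12 cholangiocyte markers 11 were higher in PLD (median log2 fold change 1.61), and their summed level ran from 9358 to 13663 CPM (counted reads scaled to library size) in WT and from 31970 to 44443 CPM in PLD. All 14 endothelial markers were lower (median -3.45), with sums of 7280 to 9288 CPM in WT and 653 to 1057 CPM in PLD. Of 14 fibroblast and stellate cell markers 11 were lower and 1 higher (median -1.83), with sums of 7553 to 12988 CPM and 1795 to 4596 CPM. Of 12 hepatocyte markers 6 were lower and 2 higher (median -1.58), with sums of 1355 to 2420 CPM and 1897 to 6124 CPM. Of 12 macrophage markers 2 were lower and 2 higher (median -0.26), with sums of 981 to 1290 CPM and 1238 to 1701 CPM. Of 7 glial and neuronal markers 6 were lower and 1 higher (median -3.27). Although 4 of 7 mesothelial markers were lower and 2 higher (median -1.69), their sums rose from 121 to 170 CPM in WT to 777 to 1181 CPM in PLD. Only 3 of 8 lymphocyte markers could be tested, of which 1 was lower and 1 higher. The keratin genes Krt7 and Krt19, which define bile duct cells, averaged 79.6 and 411 CPM in WT and 1022 and 3933 CPM in PLD, so the labelled cell type was present in both groups. Pecam1, which defines endothelium, averaged 937 CPM in WT and 77.9 CPM in PLD, and no marker of any of these lists was at 0 reads in all PLD libraries. PLD replicate 1 stood apart: its log2 CPM correlated with the other PLD libraries at r = 0.976 and 0.973, against 0.991 between those. It had the highest cholangiocyte sum and the lowest endothelial, fibroblast, hepatocyte and macrophage sums of the PLD libraries. WT replicate 1 had the weakest correlations among the WT libraries (r = 0.971 and 0.980, against 0.988). In such bulk samples fewer cells of a type and less RNA per cell cannot be told apart. The part of these shifts in the receptor results was not tested.

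**Figure D1:**
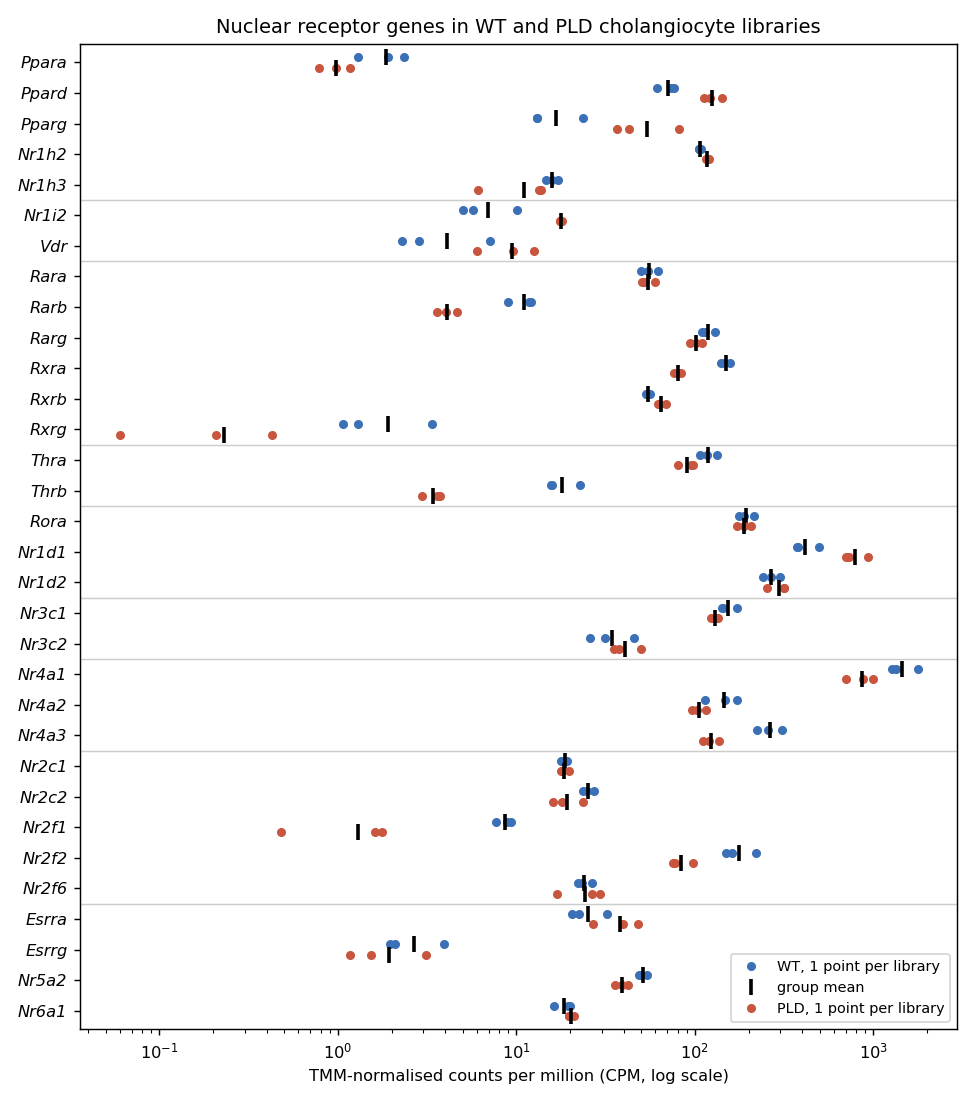
Level of each tested receptor gene in every library, as TMM-normalised library-scaled read counts (CPM) on a log axis, with WT and PLD libraries as separate points. Nr4a1 and Nr1d1 are the highest in both groups, and the points of Thrb, Rxrg, Nr2f1 and Nr1i2 separate widely between the groups.

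Levels of different receptors were compared per length of their annotated exons. In WT the highest mean was that of Nr4a1, at 415 CPM per kb, followed by Nr1d1 at 135, Nr1d2 at 49.7, Nr4a3 at 43.9 and Nr4a2 at 35.7 CPM per kb. In PLD the means of Nr1d1 (257 ± 41.4 CPM per kb) and Nr4a1 (245 ± 42.8) led, with Nr1d2 next at 54.8 CPM per kb. The first 2 means lay closer together than the SD of either, so their order in PLD is not settled. Pparg moved from rank 20 of 33 in WT to rank 9 in PLD, and Rxra from rank 9 to rank 14. Apart from Nr1i3, whose reads do not give its level, the lowest in WT were Esrrg, Ppara, Vdr and Rxrg. In PLD they were Rxrg, Nr2f1, Ppara and Esrrg. The per-length level counts every annotated exon of a gene, so genes whose main transcript uses few of them are understated. Bases shared with another gene stay in the length though reads there are left out. This can also understate Nr2f6 (54.4% of exonic bases shared with Ocel1), Rarb (34.1% with Top2b) and Nr2c2 (30.7% with Mrps25).

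Among the fatty acid sensors, 2 of the 3 PPAR genes rose and the third fell. Pparg, the regulator of adipocyte differentiation and lipid storage that also restrains inflammation in biliary epithelium (ENSMUSG00000000440.12, chromosome 6, 115360951 to 115490399, mm10), measured 13.0, 23.8 and 13.0 CPM in WT and 81.6, 36.5 and 42.8 CPM in PLD. All 3 PLD libraries lay above all 3 WT libraries, and PLD replicate 1 was the highest. The log2 fold change was 1.69 ± 0.36 (SE; edgeR adjusted p = 0.00587), and the call held without each library in turn (highest adjusted p = 0.0286, without WT replicate 3). Without PLD replicate 1 the log2 fold change was 1.261. Ppard, the broadly expressed PPAR of fatty acid oxidation, measured 73.3, 61.6 and 76.6 CPM in WT and 142, 121 and 112 CPM in PLD, again without overlap (0.83 ± 0.13, adjusted p = 0.0014). Ppara, the PPAR of fasting liver, was rare, with 40, 22 and 31 reads in WT and 17, 16 and 13 reads in PLD (-0.93 ± 0.33, adjusted p = 0.0462). This call rested on single libraries: the adjusted p was 0.116 without PLD replicate 2, 0.139 without PLD replicate 3, 0.154 without WT replicate 1 and 0.119 without WT replicate 3. DESeq2 gave Ppara an adjusted p of 0.0897.

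The summed level of the 3 PPAR genes was 15.5 ± 0.965 CPM per kb in WT and 35.0 ± 10.2 in PLD (SD, n = 3 each). Within that sum Ppara held 3.17% ± 1.07 in WT and 0.742% ± 0.125 in PLD, without overlap. The shares of Ppard (61.0% ± 10.03 and 49.0% ± 8.05) and Pparg (35.8% ± 11.0 and 50.3% ± 8.15) overlapped between the groups.

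PPAR target genes moved in both directions. Of 22 listed genes 19 were tested, of which 5 rose and 5 fell, with a median log2 fold change of 0.14. The called share was 52.6%, and the counts of this and the later lists stand beside 55.4% of all tested genes. Fabp4 and Cd36, which carry and take up fatty acids and are also expressed by endothelial cells, fell from 282 to 14.3 CPM (-4.30 ± 0.48, adjusted p = 3.33e-04) and from 323 to 24.2 CPM (-3.73 ± 0.34, adjusted p = 1.52e-04). Their fall stood beside that of the endothelial markers, and the part of those cells in it was not tested. Vnn1, a pantetheinase gene, rose from 25.7 ± 4.64 to 229 ± 98.4 CPM (3.15 ± 0.35, adjusted p = 3.47e-04).

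The liver X receptors, which sense oxysterols, were not called. Nr1h2 measured 106, 108 and 106 CPM in WT and 118, 120 and 115 CPM in PLD, a difference of 0.14 ± 0.08 on the log2 scale (adjusted p = 0.175). Nr1h3 measured 14.7, 15.8 and 17.2 CPM in WT and 6.06, 13.7 and 13.5 CPM in PLD (-0.52 ± 0.29, adjusted p = 0.162). For both genes the groups did not overlap, but the difference in Nr1h2 was small, and that in Nr1h3 was -0.22 without PLD replicate 1 (adjusted p = 0.173). Of 12 tested LXR target genes 5 rose and 3 fell (median 0.30). Mylip, which encodes the ligase that degrades the LDL receptor, fell from 92.5 ± 8.48 to 25.6 ± 2.83 CPM (-1.85 ± 0.12, adjusted p = 5.37e-05). Abcg1, a cholesterol exporter gene, rose from 33.7 ± 4.74 to 71.4 ± 2.99 CPM (1.08 ± 0.12, adjusted p = 3.73e-04), and Smpdl3a, a phosphodiesterase gene, from 79.4 ± 9.82 to 164 ± 10.2 CPM (1.04 ± 0.12, adjusted p = 3.59e-04).

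**Figure D2:**
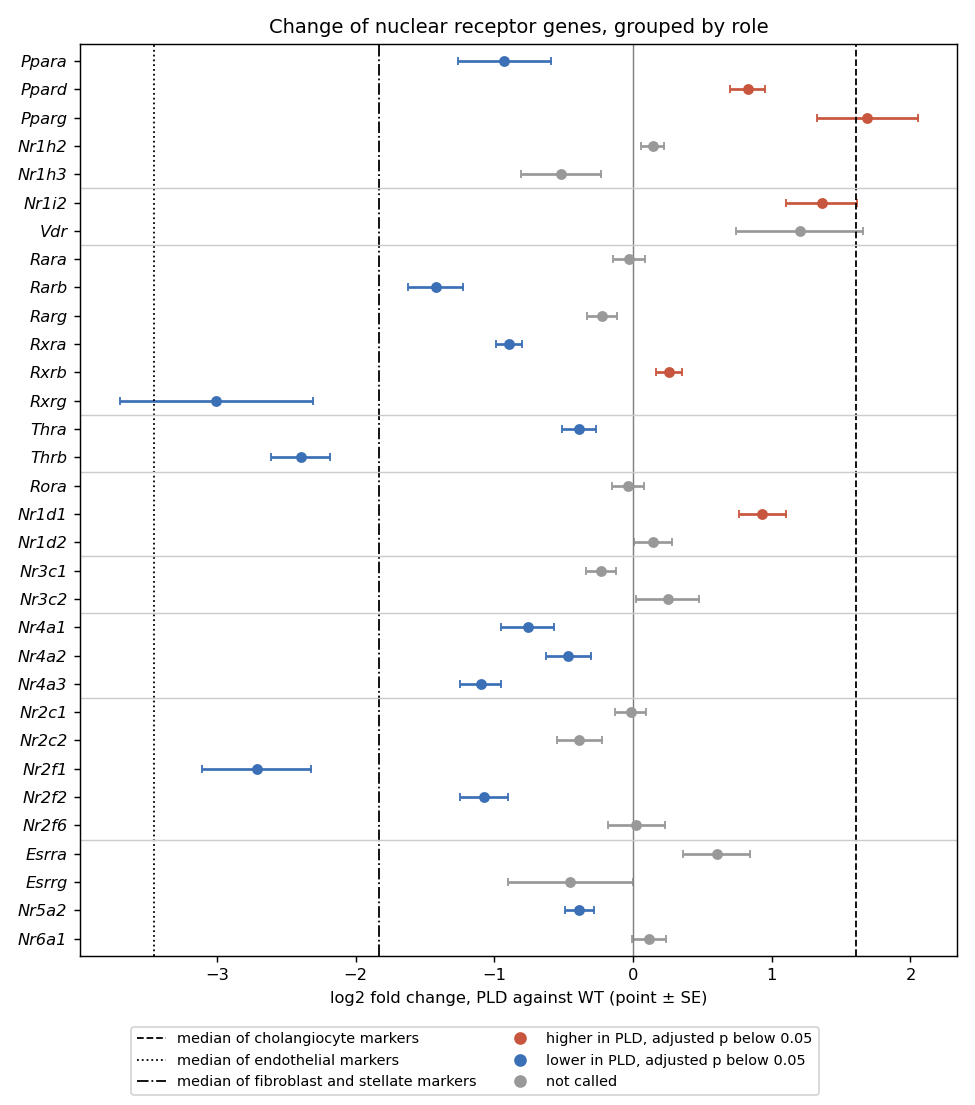
Log2 fold change (PLD against WT) of the 32 tested receptor genes with its standard error, ordered by role, with called and uncalled genes marked. Vertical lines give the median of the cholangiocyte (1.61), endothelial (-3.45) and fibroblast (-1.83) markers, and Pparg, at 1.69 ± 0.36, lies within its error of the cholangiocyte line.

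Nr1i2, which encodes the pregnane X receptor, a sensor of drugs and bile acids that drives detoxification genes, rose. Its level was 10.03, 5.72 and 5.00 CPM in WT and 17.6, 18.1 and 17.6 CPM in PLD. The PLD libraries were nearly equal and all stood above WT replicate 1, the highest of its group (1.36 ± 0.26, adjusted p = 0.00336). Of 11 tested genes that this receptor or the constitutive androstane receptor is known to control, 6 rose and 2 fell (median 0.84). Ugt1a1, which encodes the bilirubin-conjugating enzyme, rose from 1.39 ± 0.687 to 21.1 ± 2.63 CPM (3.91 ± 0.31, adjusted p = 8.84e-05), although 58.9% of its exonic bases are shared with other Ugt1a genes. Alas1, the first enzyme gene of haem synthesis, rose from 48.7 ± 4.18 to 87.3 ± 9.66 CPM (0.84 ± 0.12, adjusted p = 8.46e-04). Gsta1, a glutathione transferase gene of a family with close copies, had 6, 1 and 1 reads in WT and 193, 100 and 128 reads in PLD (5.75 ± 0.59, adjusted p = 2.42e-04), a log2 fold change that became 7.05 when WT replicate 1 was left out.

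Vdr, the receptor of the active form of vitamin D, was not called, with 7.08, 2.30 and 2.84 CPM in WT and 12.6, 6.04 and 9.55 CPM in PLD (1.20 ± 0.46, adjusted p = 0.056). WT replicate 1 lay above PLD replicate 2, so the groups overlapped. Without WT replicate 1 the log2 fold change was 1.87 and the adjusted p 0.0052, and DESeq2 on all libraries gave an adjusted p of 0.0193. Of 9 listed vitamin D receptor targets 5 were tested, and Cdkn1a, a cell cycle inhibitor gene, rose from 547 ± 105 to 1321 ± 363 CPM (1.27 ± 0.23, adjusted p = 0.00264) as the only call with all libraries. The number of calls was 3 without WT replicate 1 and 2 without PLD replicate 3, with DESeq2 or without the filter on low counts. Trpv6, an epithelial calcium channel gene, measured 1.37 ± 0.704 CPM in WT and 0.895 ± 0.183 CPM in PLD. S100g, which encodes a calcium-binding protein, measured 24.0, 0.0590 and 0.185 CPM in WT and 3.44, 1.16 and 0.721 CPM in PLD. One WT library thus set the sign of its difference, which was -2.20 ± 1.599 with all libraries (adjusted p = 0.273) and 3.77 without WT replicate 1 (adjusted p = 0.0171). Cyp24a1, the enzyme gene of vitamin D breakdown, chosen after its values were seen, was below the filter, with 3 reads in each WT library and 24, 12 and 6 reads in PLD.

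Among the retinoid receptors, which bind derivatives of vitamin A, 3 fell, 1 rose and 2 were not called. Rxra, a partner shared by many of the receptors above (ENSMUSG00000015846.15, chromosome 2, 27676440 to 27762957, mm10), measured 140, 148 and 158 CPM in WT and 79.8, 76.7 and 83.4 CPM in PLD. The gap between the groups was several times the spread within either (-0.89 ± 0.09, adjusted p = 2.54e-04). Rxrb measured 56.1, 53.6 and 53.2 CPM in WT and 62.0, 69.3 and 63.6 CPM in PLD (0.26 ± 0.09, adjusted p = 0.0416). This small rise stayed called without PLD replicate 1 but not without any other single library, where the adjusted p ran from 0.0647 to 0.126. Rxrg was rare in WT, with 57, 18 and 21 reads, and close to the floor of 3 reads in PLD, with 3, 7 and 1 reads (-3.00 ± 0.70, adjusted p = 0.0082). Its log2 fold change was -3.79 without PLD replicate 2 and -2.31 without WT replicate 1.

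The shares of the 3 RXR genes in their summed level were then compared. Rxra held 61.9% ± 2.81 of the summed CPM per kb in WT and 43.6% ± 2.37 in PLD, and Rxrb 35.9% ± 1.51 and 56.1% ± 2.12 (SD, n = 3 each). Neither share overlapped between the groups, and Rxrb took the place of Rxra as the gene with the larger share. The summed level was 38.1 ± 0.816 CPM per kb in WT and 29.1 ± 0.731 in PLD. With 3 libraries a group the two-sided exact permutation test cannot give a p below 0.1, which both shares reached, and the lowest value adjusted over the 21 shares compared in 8 subfamilies was 0.131. A total of 16 of those shares did not overlap between the groups. By CPM, which is another measure, 66.2% of all tested genes did not overlap. The shares of a subfamily add up to a whole, so a rise in one entails a fall in others, and the 16 are not separate results.

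Of the retinoic acid receptors, Rarb fell and the others were not called. Rarb (ENSMUSG00000017491.9, chromosome 14, 16430839 to 16819156, mm10) measured 12.1, 9.02 and 11.8 CPM in WT and 3.58, 4.03 and 4.62 CPM in PLD, with no overlap (-1.42 ± 0.20, adjusted p = 8.37e-04). Its exons share 34.1% of their bases with Top2b, where reads are left out as for Nr1i3. Rarb is a textbook target of retinoic acid through a direct repeat in its promoter, and its 250 bases before the RefSeq start are therefore shown, 5′ to 3′ on the gene's strand (chr14:16575477-16575726, minus strand, GRCm38.p6). The capitals mark 2 elements in direct repeat with 5 bases between them, beginning 53 bases before the start.
Rarb: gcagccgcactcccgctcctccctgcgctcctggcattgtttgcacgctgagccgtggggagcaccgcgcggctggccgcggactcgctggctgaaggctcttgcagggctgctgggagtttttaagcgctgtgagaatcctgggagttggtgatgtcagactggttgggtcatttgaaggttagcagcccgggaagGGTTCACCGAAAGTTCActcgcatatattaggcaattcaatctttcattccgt
The search accepted AGGTCA as the element, with GGGTCA as a variant, as well as AGTTCA and, last, GGTTCA, on both strands. Such a repeat with 5 bases between occurred in 29 of 32851 RefSeq promoter windows of the same length (0.0883%), and in no other of the 48 windows found for 31 of the 33 receptor genes. The Rarb repeat is made of GGTTCA and AGTTCA, which are accepted variants, and holds no AGGTCA. Its match therefore depended on accepting these variants, so its rarity among the windows is descriptive and not a test. The match describes the letters of this window and is not evidence of binding.

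Rara measured 50.0, 54.4 and 61.8 CPM in WT and 50.8, 59.7 and 52.5 CPM in PLD, with a log2 difference of -0.03 ± 0.12 (adjusted p = 0.849) whose sign differed in 3 of the alternative settings. Rarg measured 115, 110 and 130 CPM in WT and 94.2, 109 and 101 CPM in PLD (-0.22 ± 0.11, adjusted p = 0.114). Rarb was thus the retinoic acid receptor that moved, and its share of the summed RAR level was 4.90% ± 0.692 in WT and 2.09% ± 0.266 in PLD. Of 9 tested retinoic acid target genes 5 fell and 1 rose (median -0.60). Dhrs3, a retinal reductase gene, fell from 132 ± 2.65 to 57.0 ± 10.1 CPM (-1.21 ± 0.14, adjusted p = 3.82e-04). Hic1, a repressor gene, fell from 23.7 ± 5.58 to 6.27 ± 0.365 CPM (-1.92 ± 0.19, adjusted p = 2.30e-04). Cyp26b1, which encodes a retinoic acid-degrading enzyme, measured 379, 88.0 and 105 CPM in WT and 3.99, 4.82 and 15.1 CPM in PLD. The WT libraries spread widely but stayed far above PLD (-4.57 ± 0.76, adjusted p = 0.00194), with a log2 fold change of -5.41 without PLD replicate 3 and -3.58 without WT replicate 1. These falls stood beside those of the endothelial and fibroblast markers, and the part of those cells in them was not tested.

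**Figure D3:**
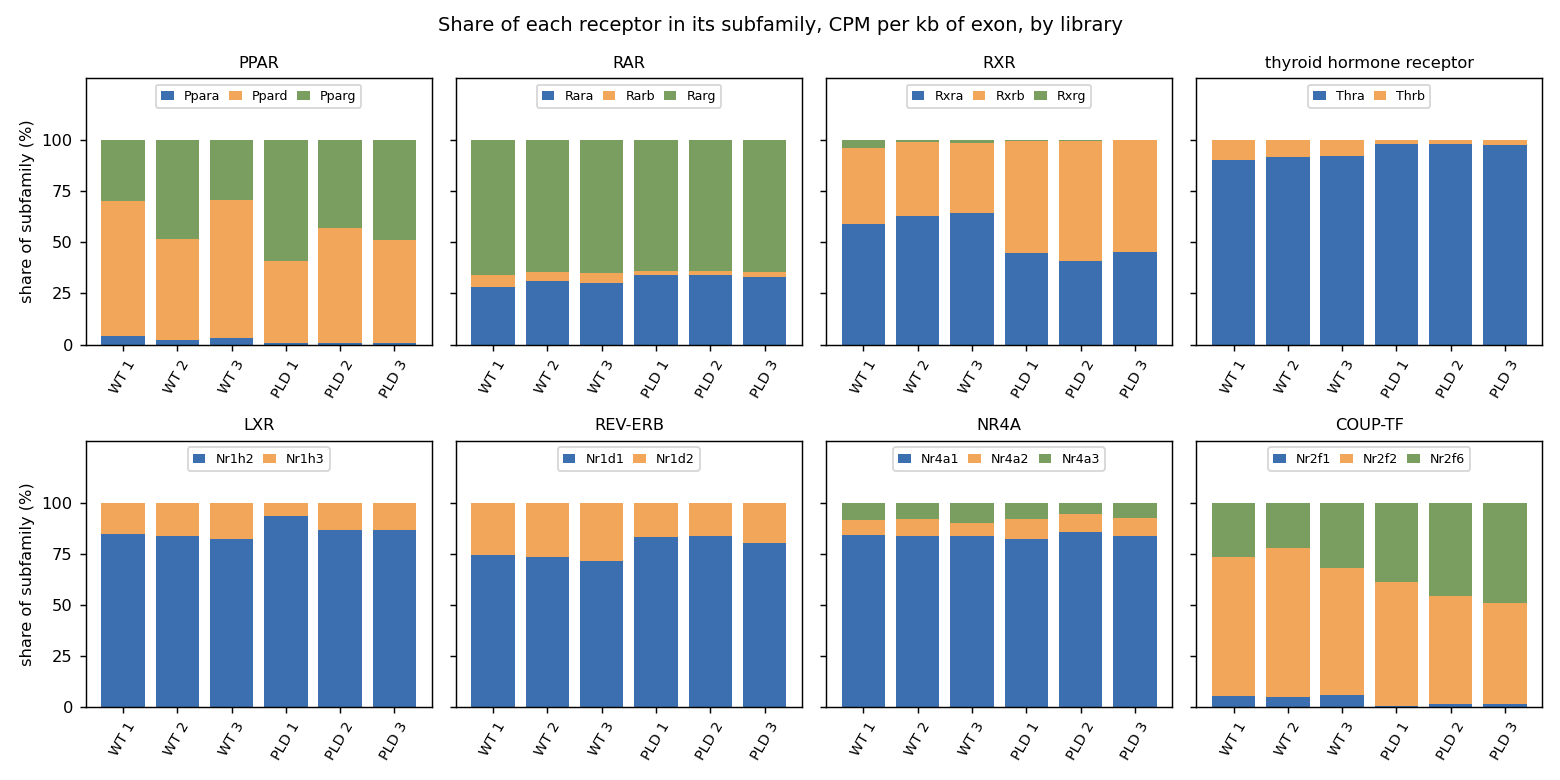
Share of each gene in the summed CPM per kb of its receptor subfamily, in percent, for each WT and PLD library. Rxrb exceeds Rxra in PLD, where it holds 56.1% on average, and Thra holds 91.4% of the thyroid hormone receptor level in WT and 97.7% in PLD.

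Both thyroid hormone receptor genes fell. Thrb, the receptor known for the hormone response of liver (ENSMUSG00000021779.17, chromosome 14, 17660261 to 18038090, mm10), measured 22.8, 15.9 and 15.6 CPM in WT and 2.96, 3.60 and 3.72 CPM in PLD. Every PLD library was far below the lowest WT library (-2.40 ± 0.21, adjusted p = 1.35e-04). Thra measured 133, 107 and 117 CPM in WT and 80.3, 97.5 and 94.9 CPM in PLD (-0.39 ± 0.12, adjusted p = 0.0283). The Thra call was lost when any library except WT replicate 2 was left out, with adjusted p from 0.0507 to 0.0913. Thra held 91.4% ± 0.982 of the summed receptor level per length in WT and 97.7% ± 0.0795 in PLD, without overlap.

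Of 8 tested genes for enzymes that make or break down receptor ligands, 3 rose, 4 fell and 1 was not called (median -0.65). Dio3, which inactivates the hormone, measured 7.37, 5.48 and 5.62 CPM in WT and 90.0, 120 and 126 CPM in PLD (4.18 ± 0.19, adjusted p = 2.53e-05). Dio1, which can both activate and inactivate it, measured 2.48, 1.65 and 2.16 CPM in WT and 6.82, 9.33 and 9.31 CPM in PLD (2.01 ± 0.24, adjusted p = 4.63e-04). Neither gene overlapped between the groups. The rise of Dio3 lay above that of the highest cholangiocyte marker (Krt7 at 3.68) and below that of the highest mesothelial marker (5.77). The mesothelial list as a whole had 4 markers lower and 2 higher, with a median of -1.69. The part of cell make-up in the rise of Dio3 was not tested. Dio2, the activating enzyme gene, named after its values were seen, was too low to test, with 33, 7 and 10 reads in WT and 2, 2 and 1 reads in PLD. All 6 thyroid hormone target genes passed the test, 4 higher and 2 lower (median 0.78). Me1, the malic enzyme gene, rose from 49.3 ± 7.59 to 170 ± 5.39 CPM (1.78 ± 0.13, adjusted p = 6.33e-05), and Klf9, a zinc finger factor gene that glucocorticoids also induce, fell from 352 ± 57.2 to 102 ± 15.4 CPM (-1.79 ± 0.17, adjusted p = 1.74e-04). Thus Dio1 and Me1 lay above WT while Klf9 lay below it.

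**Figure D4:**
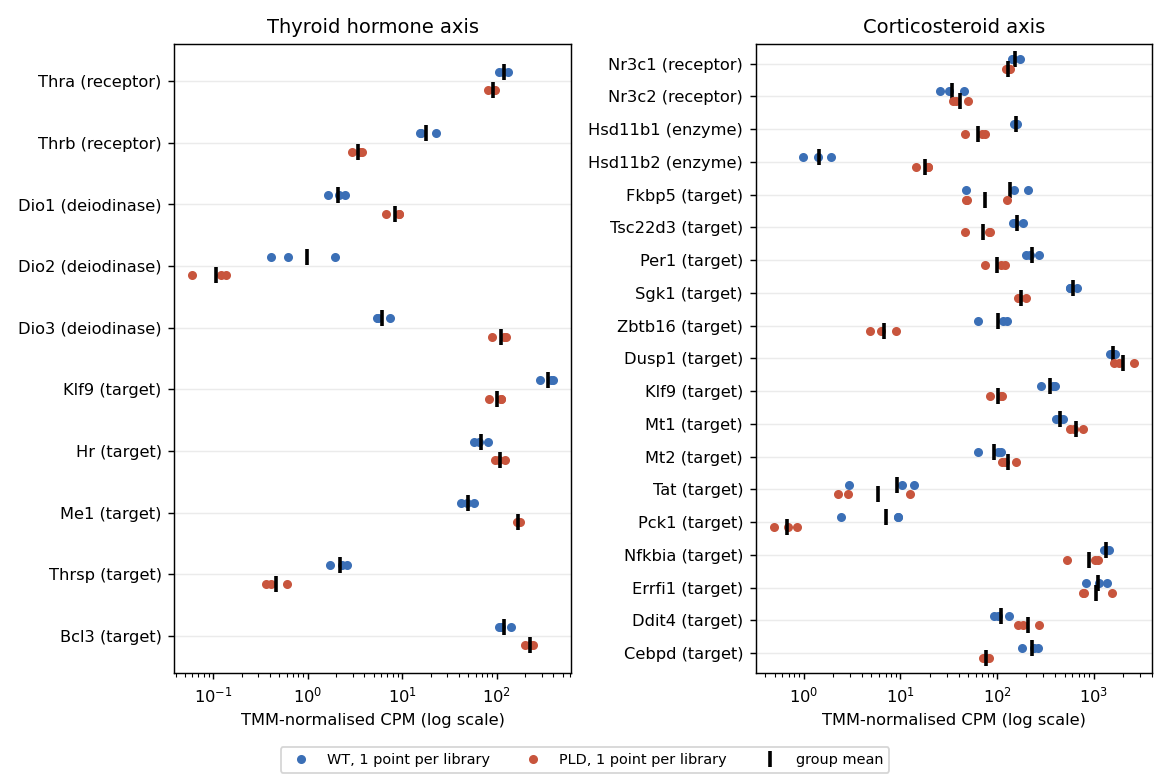
CPM per library, on a log axis, of receptors, hormone-converting enzymes and target genes of thyroid hormone and of corticosteroids. Dio3 and Hsd11b2 stand higher in every PLD library than in any WT library, while Thrb, Hsd11b1, Klf9, Sgk1 and Zbtb16 stand lower.

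Of the receptors that feed back on the circadian clock, Nr1d1 rose and the others were not called. Nr1d1, which encodes the haem-binding repressor REV-ERB alpha (ENSMUSG00000020889.11, chromosome 11, 98767932 to 98775333, mm10), measured 496, 372 and 376 CPM in WT and 707, 938 and 728 CPM in PLD (0.93 ± 0.17, adjusted p = 0.0029). The groups did not overlap. Nr1d1 lies opposite Thra and shares 263 exonic bases with it, which is 8.5% of its exons and 5.7% of those of Thra, and the counting command names no strand setting. Its paralogue Nr1d2 measured 301, 240 and 266 CPM in WT and 254, 318 and 317 CPM in PLD (0.14 ± 0.14, adjusted p = 0.406). Rora, the activator that competes for the same DNA elements, measured 189, 176 and 214 CPM in WT and 173, 188 and 205 CPM in PLD (-0.03 ± 0.12, adjusted p = 0.816). Both of these overlapped between the groups, and Nr1d1 held 72.9% ± 1.50 of the REV-ERB level per length in WT and 82.3% ± 1.94 in PLD.

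Among 16 other clock genes 5 rose, 2 fell and 9 were not called (median 0.31). The called share was 43.75%, beside 55.4% of all tested genes. Cry2, a repressor gene of the clock, rose from 45.9 ± 6.33 to 78.0 ± 5.10 CPM (0.76 ± 0.12, adjusted p = 0.00161). Per1, which glucocorticoids and growth stimuli also induce, fell from 228 ± 37.3 to 101 ± 23.3 CPM (-1.18 ± 0.20, adjusted p = 0.00196). Nfil3, a repressor gene that REV-ERB receptors control, fell from 106 ± 3.31 to 70.3 ± 9.99 CPM (-0.59 ± 0.12, adjusted p = 0.00471). The count of risen clock genes was 3 without PLD replicate 1, PLD replicate 2 or WT replicate 2, and 2 without WT replicate 3. The hour of collection is not given, and its part in these values was not tested.

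The corticosteroid receptors themselves were not called. Nr3c1, the glucocorticoid receptor gene, measured 172, 144 and 142 CPM in WT and 131, 123 and 135 CPM in PLD (-0.23 ± 0.11, adjusted p = 0.104), without overlap. Nr3c2, the mineralocorticoid receptor gene, measured 45.7, 25.8 and 31.4 CPM in WT and 49.7, 35.0 and 37.7 CPM in PLD (0.25 ± 0.23, adjusted p = 0.377), with overlap. Of the enzyme genes that convert their ligands, 1 fell and 1 rose. Hsd11b1, which regenerates active glucocorticoid and is named after its values were seen, measured 148, 158 and 160 CPM in WT and 46.9, 69.0 and 74.8 CPM in PLD (-1.29 ± 0.17, adjusted p = 7.24e-04). Hsd11b2, which inactivates it and so protects the mineralocorticoid receptor, measured 1.89, 1.42 and 0.988 CPM in WT and 14.4, 19.5 and 19.4 CPM in PLD (3.62 ± 0.26, adjusted p = 6.65e-05). No library of one group reached the range of the other for either gene.

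Of 15 glucocorticoid target genes 7 fell, 2 rose and 6 were not called (median -0.88). Sgk1, a kinase gene induced by both corticosteroids, fell from 603 ± 53.7 to 177 ± 18.1 CPM (-1.77 ± 0.13, adjusted p = 6.33e-05), and Zbtb16, a zinc finger factor gene, from 101 ± 33.5 to 6.70 ± 2.16 CPM (-3.91 ± 0.33, adjusted p = 1.18e-04). Klf9, described above, also belongs to this list. Of 5 tested mineralocorticoid target genes 3 rose and 1 fell, and the one that fell was Sgk1. Nedd4l, a ubiquitin ligase gene that restrains the epithelial sodium channel, rose from 213 ± 35.7 to 448 ± 9.35 CPM (1.07 ± 0.14, adjusted p = 6.82e-04). These falls stood beside those of the endothelial and fibroblast markers, whose part in them was not tested.

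**Figure D5:**
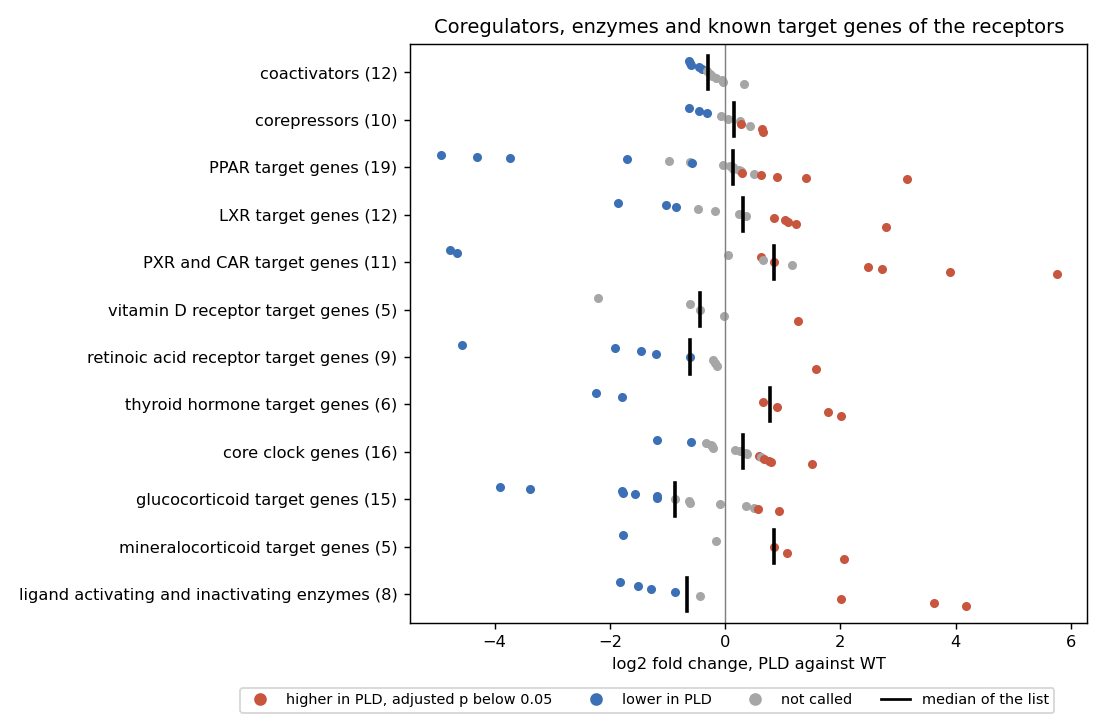
Log2 fold change of every tested gene in each pathway list, 1 point a gene, with the median of each list marked. Lists of vitamin D, retinoic acid and glucocorticoid targets have medians below 0. The vitamin D list holds 5 tested genes, of which the only one called with all libraries, Cdkn1a, was higher in PLD. Medians of pregnane X receptor, thyroid hormone and mineralocorticoid targets lie above 0. Each of these lists has members on both sides.

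All 3 NR4A genes, which encode orphan receptors induced within minutes by cAMP, growth factors and cell handling, fell. Nr4a1 (ENSMUSG00000023034.7, chromosome 15, 101254269 to 101274795, mm10) measured 1770, 1333 and 1267 CPM in WT and 700, 999 and 880 CPM in PLD (-0.76 ± 0.19, adjusted p = 0.0112). Nr4a3 measured 309, 222 and 257 CPM in WT and 120, 111 and 137 CPM in PLD (-1.10 ± 0.15, adjusted p = 7.58e-04). For both genes all PLD libraries lay below all WT libraries. Nr4a2 measured 172, 148 and 114 CPM in WT and 96.5, 115 and 103 CPM in PLD (-0.47 ± 0.16, adjusted p = 0.0387), with PLD replicate 2 above WT replicate 3, and its call was lost without any single library other than WT replicate 3 (adjusted p from 0.061 to 0.115). Of the 9 other immediate early genes 5 fell and none rose (median -0.74). Among these Fos fell from 3369 ± 402 to 2006 ± 285 CPM (-0.75 ± 0.17, adjusted p = 0.00727) and Fosb from 6268 ± 126 to 3742 ± 330 CPM (-0.74 ± 0.15, adjusted p = 0.00426), and their part in the NR4A result was not tested.

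Because these genes moved together and answer to cAMP, their promoters are shown as the 250 bases before the RefSeq start, 5′ to 3′ on each gene's strand in GRCm38.p6. The windows are chr15:101266596-101266845 (plus) for Nr4a1, chr2:57124004-57124253 (minus) for Nr4a2 and chr4:48045055-48045304 (plus) for Nr4a3. Capitals mark TGACG, the core of the cAMP response element, which reads CGTCA where it lies on the other strand.
Nr4a1: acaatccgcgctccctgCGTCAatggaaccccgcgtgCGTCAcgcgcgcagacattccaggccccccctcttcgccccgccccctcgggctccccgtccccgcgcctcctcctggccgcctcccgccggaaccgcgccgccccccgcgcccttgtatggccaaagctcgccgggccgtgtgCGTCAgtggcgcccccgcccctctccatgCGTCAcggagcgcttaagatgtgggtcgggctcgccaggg
Nr4a2: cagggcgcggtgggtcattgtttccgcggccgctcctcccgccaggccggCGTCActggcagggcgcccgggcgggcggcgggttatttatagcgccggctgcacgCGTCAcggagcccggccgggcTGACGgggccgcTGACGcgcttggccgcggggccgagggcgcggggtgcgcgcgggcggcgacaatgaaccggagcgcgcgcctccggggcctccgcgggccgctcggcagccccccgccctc
Nr4a3: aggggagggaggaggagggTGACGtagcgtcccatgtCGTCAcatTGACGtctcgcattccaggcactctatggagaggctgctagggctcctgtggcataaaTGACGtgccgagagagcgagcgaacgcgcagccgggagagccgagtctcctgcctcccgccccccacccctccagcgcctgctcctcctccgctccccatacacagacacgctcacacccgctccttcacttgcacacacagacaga
Each window held 4 matches. In Nr4a1 they began 233, 213, 69 and 40 bases before the start, in Nr4a2 200, 144, 123 and 111, and in Nr4a3 231, 213, 205 and 147. At least 1 match was found in 17.8% of 32851 RefSeq windows of this length, and at least 4 in 45 windows (0.137%), a cutoff set after these matches were seen. Of the 48 windows of receptor genes 10 held a match, and those with 4 were the NR4A windows only. The full palindrome TGACGTCA, which contains TGACG on both strands, occurred in 1.55% of all windows and in none of the receptor genes. These matches describe the letters and say nothing of binding in these cells.

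The COUP transcription factors, orphan receptors of vascular and mesenchymal development, included the strongest fall after that of Rxrg, in Nr2f1. Nr2f1 measured 7.67, 9.32 and 8.83 CPM in WT and 0.482, 1.77 and 1.62 CPM in PLD (-2.71 ± 0.39, adjusted p = 0.00105). Nr2f2, which specifies venous endothelium, measured 161, 219 and 149 CPM in WT and 75.4, 97.8 and 77.9 CPM in PLD (-1.07 ± 0.18, adjusted p = 0.00174). Both were without overlap, and both fell less than the median endothelial marker (-3.45). Beside the median of the fibroblast and stellate cell markers (-1.83), Nr2f1 fell more and Nr2f2 less. The part of those cells in the falls of Nr2f1 and Nr2f2 was not tested. Nr2f6 measured 22.0, 23.2 and 26.4 CPM in WT and 16.8, 29.3 and 26.7 CPM in PLD (0.02 ± 0.21, adjusted p = 0.928), and 54.4% of its exonic bases are shared with Ocel1. The testicular orphan receptor genes were not called: Nr2c1 measured 17.8, 18.8 and 19.3 CPM in WT and 19.6, 17.7 and 17.95 CPM in PLD (-0.02 ± 0.11, adjusted p = 0.906). Nr2c2 measured 27.2, 24.8 and 23.7 CPM in WT and 18.1, 16.0 and 23.7 CPM in PLD (-0.39 ± 0.16, adjusted p = 0.0744), and 30.7% of its exonic bases are shared with Mrps25. PLD replicate 3 lay just below the lowest WT library, and without it Nr2c2 passed the test (-0.55, adjusted p = 0.0163).

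Of the remaining orphan receptors only Nr5a2 was called. Nr5a2, which encodes the liver receptor homologue that supports bile acid synthesis, measured 54.0, 48.9 and 50.2 CPM in WT and 42.2, 35.6 and 39.2 CPM in PLD (-0.39 ± 0.10, adjusted p = 0.0151), without overlap, and lost its call without PLD replicate 2 (-0.32, adjusted p = 0.061). Esrra, a regulator of mitochondrial genes, measured 32.1, 20.5 and 22.5 CPM in WT and 26.9, 47.8 and 39.3 CPM in PLD (0.60 ± 0.24, adjusted p = 0.069). PLD replicate 1 lay within the WT range, and Esrra passed the test without it (0.81, adjusted p = 0.0127), without WT replicate 1 (0.82, adjusted p = 0.027) and with DESeq2 (adjusted p = 0.0484). Esrrg measured 3.95, 1.95 and 2.10 CPM in WT and 1.17, 1.52 and 3.12 CPM in PLD (-0.45 ± 0.45, adjusted p = 0.42). Nr6a1, the germ cell nuclear factor gene, measured 19.9, 16.3 and 19.6 CPM in WT and 21.1, 19.8 and 19.7 CPM in PLD (0.12 ± 0.12, adjusted p = 0.443).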

How the data were processed

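Per the file headers, the authors made the deposited raw counts per gene with featureCounts 1.6.0 on GENCODE vM25 (mm10), naming no option for strand, pairs, multi-mapping or overlap. STAR 2.7.4a, SAMtools 1.12 and DESeq2 1.26.0 are named per the submitters' processing notes. Symbols came from GENCODE vM21, which matched 55141 of 55401 IDs. Gene spans are those of the deposited tables. Promoters came from RefSeq.

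Library totals ran from 15768561 to 16710548 reads, so 3 counts are 0.180 to 0.190 CPM before TMM scaling. In edgeR 4.0.16 (R 4.3.3), filterByExpr kept 15334 genes, TMM factors (0.922 to 1.04) scaled the libraries, and PLD was tested against WT by the quasi-likelihood F test with Benjamini-Hochberg adjustment (threshold 0.05). Each standard error is the size of the log2 fold change over the root of F. TMM factors enter the CPM values, and ± after a level is the SD of 3 libraries. No pair of replicates agreed within sampling noise (chi-square per degree of freedom 9.72 to 63.9). The functions were tested on simulated data.

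The members and lists were chosen with earlier results of these data known. Named are every receptor gene, the 3 genes with the smallest p of each pathway list and the first 2 of each marker list as needed; others are marked as chosen after their values were seen. A gene that this rule takes is not reported here. Alternatives were DESeq2 1.42.0, RLE and upper-quartile factors, other filters, a replicate block, a 2-fold minimum and leaving out each library. Applying them to the pathway lists was chosen after seeing the data.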

Additional observations from a re-analysis of the deposited data

How the results depend on the processing

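The count of called receptor genes, 17 (5 higher, 12 lower), ran from 12 to 16 when each library was left out (4 to 6 higher, 8 to 11 lower), and that of all genes, 8493, from 6799 to 8745 (3173 to 4183 higher, 3626 to 4562 lower). With a 2-fold minimum 8 receptor genes (2 higher, 6 lower) and 4188 of all genes (1413 higher, 2775 lower) were called. DESeq2 called 18 receptor genes, and RLE factors, upper-quartile factors and a filter of 1 CPM in 3 libraries 17 each. Over these alternatives 348 receptor fold changes kept their call, of which 13 values of 4 uncalled genes (Rara, Rora, Nr2c1 and Nr2f6) differed in sign, 27 values of 5 genes lost the call, 9 values of 3 genes gained it, and 0 called values reversed. Without the filter on low counts, 16 were called, and the adjusted p was 0.0949 for Ppara, 0.113 for Rxrb and 0.0532 for Thra, while Vdr (0.0196) and Esrra (0.0349) passed. Among the 33 named pathway genes run under these alternatives the 1 reversal was S100g, from -3.09 to 3.77 when each library was left out (3.77 without WT replicate 1). The deviations of same-numbered libraries correlated with r of 0.156, 0.0363 and 0.0613, and those of differently numbered ones with r from -0.123 to 0.122. With 3 libraries in each group these values cannot settle whether the numbers pair the samples. The main fit treated them as unpaired. With a replicate block 15 receptor genes (5 higher, 10 lower) and 8162 of all genes were called. Under the block the adjusted p was 0.0681 for Ppara, 0.0764 for Rxrb, 0.0524 for Thra and 0.00657 for Vdr. Low read numbers limit the precision for Rxrg and Ppara.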

Other observations

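Nuclear receptors act through coregulators, proteins that open or close chromatin at their targets. Of 12 tested coactivator genes 5 fell and none rose (median log2 fold change -0.29), and without WT replicate 3 the falls numbered 3. The called share was 41.7%, beside 55.4% of all tested genes, and no coactivator was both called and changed at least 2-fold. Ncoa2, of the p160 coactivator family, fell from 97.3 ± 8.84 to 64.8 ± 2.53 CPM (SD, n = 3 libraries each; log2 fold change -0.59 ± 0.10 SE, edgeR adjusted p = 0.00212). Ncoa7, a receptor-binding protein gene, fell from 38.0 ± 1.37 to 24.9 ± 1.92 CPM (-0.61 ± 0.10, edgeR adjusted p = 0.00213). Carm1, an arginine methyltransferase gene, fell from 40.9 ± 4.23 to 26.4 ± 4.36 CPM (-0.63 ± 0.15, edgeR adjusted p = 0.00937). For all 3 the groups did not overlap.

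Of 10 tested corepressor genes 3 rose and 3 fell (median 0.15), a called share of 60.0% beside 55.4% of all tested genes. Nrip1, whose protein represses ligand-bound receptors, rose from 84.2 ± 7.40 to 131 ± 17.2 CPM (0.63 ± 0.13, edgeR adjusted p = 0.00417). Sin3a, a scaffold of histone deacetylase complexes, fell from 88.2 ± 8.08 to 57.4 ± 8.89 CPM (-0.62 ± 0.13, edgeR adjusted p = 0.0063). Tbl1xr1, a subunit of the NCoR complex, fell from 50.5 ± 4.19 to 36.8 ± 1.86 CPM (-0.46 ± 0.10, edgeR adjusted p = 0.00765). The median over all genes tested was 0.01.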
